A study of Mus musculus
Mus spretus with 18 samples.

Results

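The 8 genes that encode the subunits of the cytosolic chaperonin, called CCT or TRiC, were examined in RNA sequencing data of F1 hybrid mice: Tcp1 (subunit alpha), Cct2 (beta), Cct3 (gamma), Cct4 (delta), Cct5 (epsilon), Cct6a (zeta), Cct7 (eta) and Cct8 (theta). The members were taken by gene symbol, with earlier results of these data known. All their splicing events were taken, with values given at a minimum of 20 junction reads per library. The exons named singly below were picked by their measured inclusion or a test result. The 8 genes stand among 38924 genes of the expression table. They hold 91 of 125200 skipped exon (SE) events and 4 of 2243 retained intron (RI) events. Of the 91 SE events, 90 had 20 or more reads in both libraries of at least 1 tissue or treatment, and the number per gene ran from 6 in Cct6a to 15 in Tcp1.

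The chaperonin is a barrel of 2 stacked rings, in which each of the subunits takes a fixed place, and it closes over an unfolded protein and lets it fold with the use of ATP. Its best known substrates are actin and tubulin, and Cdc20 and Fzr1, activators of the anaphase-promoting complex, are others. Prefoldin hands nascent actin and tubulin chains to it, and phosducin-like proteins bind it as cofactors. Skipping of an exon removes it from the mRNA and, where its length is not a multiple of 3, shifts the reading frame of what follows.

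The mice were female F1 hybrids of a C57BL/6J mother, a laboratory strain, and a SPRET/EiJ father, an inbred Mus spretus strain, so every cell held 1 allele of each strain and reads could be given to an allele by sequence differences. Cerebral cortex, heart, kidney, lung, spleen and liver came from mice aged 8 weeks, and embryonic stem cells (ESC) were 2 separate clones grown with 2i and LIF, with 2 libraries per tissue. The labels of the liver libraries name C57BL/7J and C57BL/8J in place of C57BL/6J, and liver came from an earlier study of the same animals. The 6 organs were taken from 2 animals, so libraries of different organs share an animal, and whether a replicate number marks the same animal in each organ is not given in the sources used here. A fibroblast line derived from the F1 mice was treated for 4 h with 0.1 μM pladienolide B (PladB), which binds the SF3B complex of the U2 snRNP and inhibits splicing, or with DMSO, with 2 libraries each. The DMSO labels also carry the 0.1 μM, and the methods describe DMSO in the amount that the PladB solution brought. Both fibroblast groups are 1 line, so their p-values measure the spread between libraries and not between animals. Inclusion was measured as percent spliced in (PSI), from 0 for an exon always skipped to 1 for an exon always included, and mRNA levels in TPM, a count per transcript length scaled to a fixed total per library.

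Junction reads over all SE events ranged from 46558287 to 129496306 in the 14 tissue libraries and from 129067054 to 151755602 in the 4 fibroblast libraries. Member events were read far more deeply than most, with a median of 4051 reads per library against 378 over all events in the tissue comparison, and 6768 against 625 in fibroblasts. The summed TPM of the 4 marker genes chosen for each tissue was at least 32.1 times higher in the lowest library of that tissue than in the highest library of any other group. The 4 hemoglobin genes, markers of blood, summed to between 107 TPM in a cortex library and 7385 in a spleen library, at most 0.0222 in ESC and 0 in fibroblasts, and the part of blood in the tissue levels was not tested. The effective length of the skipped form was 75 bases in tissues and 149 in fibroblasts, which were sequenced with longer reads, and fibroblast values are set beside tissue values without a test. In bulk tissue, fewer cells that express a gene and less RNA per cell cannot be told apart.

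On the GRCm38 assembly, Tcp1 lies at chr17:12916329-12925067, Cct2 at chr10:117050997-117063852, Cct3 at chr3:88297135-88321766, Cct4 at chr11:22990593-23003336, Cct5 at chr15:31590800-31601846, Cct6a at chr5:129787356-129846443, Cct7 at chr6:85451505-85468477 and Cct8 at chr16:87483325-87495869. The ends of Tcp1 overlap Mrpl18 and Acat3, and Psph, Pradc1 and Usp16 overlap Cct6a, Cct7 and Cct8. Tcp1 is also overlapped by LOC115488839 and Snora20, and Cct6a by Gm23245 and Snora15. The authors counted by strand and split a read that fell on several genes among them.

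All 8 subunit mRNAs were highest in ESC and lowest in liver. The 8 TPM values summed to 3904 and 4451 in ESC libraries 1 and 2, 1486 and 1654 in spleen, 1156 and 1222 in cortex, 990 and 1041 in kidney, 887 and 930 in lung, 891 and 913 in heart, and 583 and 560 in liver. Tcp1 stood at 91 and 95.6 TPM in cortex, 94.6 and 113 in spleen, 69.3 and 70.8 in heart, 72.5 and 77.3 in kidney, 58.9 and 62 in lung, 42.1 and 40.9 in liver and 209 and 274 in ESC. For Cct2, the libraries of cortex gave 188 and 193 TPM, those of heart 158 and 162, of kidney 183 and 194, of lung 174 and 179, of spleen 298 and 325, of liver 99.9 and 94.8 and of ESC 656 and 761. The ESC libraries of both genes lay above every other tissue library, and the liver libraries below every other. Cct3 stood at 67.8 and 71.7 TPM in cortex, 102 and 117 in spleen, 66.2 and 66.1 in heart, 64.8 and 68.9 in kidney, 57.6 and 60.3 in lung, 42.9 and 42.8 in liver and 299 and 320.2 in ESC. For Cct4, the libraries of cortex gave 72 and 75.6 TPM, those of heart 72.2 and 75.4, of kidney 92.7 and 92.2, of lung 80.7 and 80.8, of spleen 151 and 158, of liver 49.7 and 45.8 and of ESC 429.7 and 385. Cct3 and Cct4 were, with Tcp1, the least abundant subunits in each tissue. Cct5 stood at 148 and 154 TPM in cortex, 256 and 271 in spleen, 134 and 137 in heart, 139 and 151 in kidney, 141 and 151 in lung, 92.1 and 92.3 in liver and 488 and 664 in ESC. For Cct6a, the libraries of cortex gave 226 and 247 TPM, those of heart 119.8 and 123, of kidney 184 and 187, of lung 118 and 126, of spleen 179.6 and 223, of liver 90.6 and 90.2 and of ESC 592 and 730.5. By mean TPM, Cct6a was the subunit with its second-highest level in cortex, whereas the other 7 had it in spleen. For Cct6a, Tcp1 and Cct7 the order of cortex and spleen was not resolved, as given below. Cct7 stood at 185 and 201 TPM in cortex, 198 and 224 in spleen, 171 and 172 in heart, 134 and 145 in kidney, 154 and 164 in lung, 77.4 and 73.7 in liver and 611 and 694 in ESC. For Cct8, the libraries of cortex gave 178 and 184 TPM, those of heart 101 and 107, of kidney 120.3 and 126, of lung 104 and 107, of spleen 206 and 223, of liver 87.9 and 79.5 and of ESC 619.9 and 623. For each of the 8 genes, the tissue groups at the top and the bottom of the order did not overlap with any other tissue. The share of all genes of which this holds was not counted. Levels of the 8 subunits differed within a tissue by 2.34 times in liver to 3.4 times in cortex (highest over lowest mean TPM, which is per transcript length), with Cct2 or Cct6a or, in heart, Cct7 at the top.

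**Figure D1:**
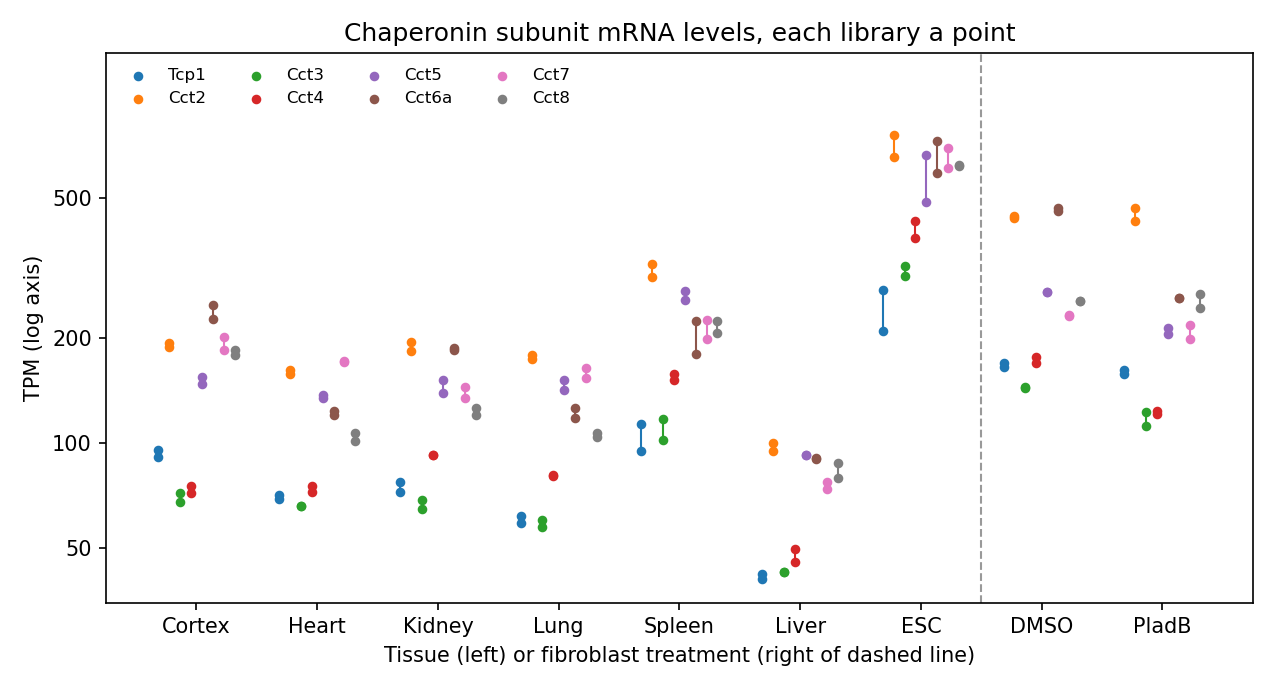
TPM (log axis) of the 8 chaperonin genes in the 2 libraries (points, joined by a line) of each tissue and each fibroblast treatment. Every gene is highest in ESC and lowest in liver among the tissues, and Tcp1, Cct3 and Cct4 lie below the other subunits throughout.

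Compared with the mean of the 6 organs by limma on log2(TPM + 0.1), ESC levels were higher by 1.75 (Tcp1) to 2.31 (Cct4) on the log2 scale, with adjusted p between 3.78e-10 and 6.04e-08. All 8 passed the limits of an adjusted p of 0.05 and a log2 difference of 1, and 35.6% of all 19138 genes tested did so in that direction. For Cct4 the difference was 2.31 ± 0.058 (SE), and for Tcp1 1.75 ± 0.096. The median over all genes tested was 0.36, and with library medians centred the 8 differences were 1.35 to 1.91, all with the same sign. That centring moved the genes called from 6820 higher and 4891 lower to 5271 higher and 5948 lower. Across the 7 tissues, all 8 genes also differed by the F test with a log2 range of 1 or more, as did 99.0% of all genes, so that count does not set the members apart. ESC mean TPM was between 2.19 times (Cct5) and 3.09 times (Cct7) that of the next tissue, and 5.81 times (Tcp1) to 8.64 times (Cct7) that of liver.

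Between ESC at the top and liver at the bottom, many neighbours in the order could not be separated. Of 48 neighbouring pairs of tissues over the 8 genes, 26 differed at an adjusted p of 0.05 and 22 did not. For Tcp1, spleen and cortex could not be told apart (log2 difference 0.15 ± 0.126, adjusted p = 0.3), nor could kidney and heart, or heart and lung. For Cct2 this held of cortex and kidney, kidney and lung, and lung and heart (adjusted p between 0.176 and 0.889). For Cct6a the order of cortex, spleen and kidney was not resolved (adjusted p = 0.0955 and 0.437), and its spleen libraries stood at 179.6 and 223 TPM. Spleen and cortex could also not be told apart for Cct7 (log2 difference 0.13 ± 0.0951, adjusted p = 0.234). Liver was below its neighbour for all 8 genes, and ESC above its neighbour for all 8.

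The genes with the profile most like the mean standardised profile of the 8 members over the 14 tissue libraries were Cirh1a (Pearson r = 0.996), Eif3a (0.993), Rars (0.993), Bms1 (0.992) and Urb2 (0.991). Eif3a is a subunit of the translation initiation factor eIF3, Rars the arginyl-tRNA synthetase, and the products of Cirh1a and Bms1 act in ribosome assembly. Each member set against the mean profile of the other 7 had r from 0.952 (Cct6a) to 0.990 (Cct2). The median r of 19138 genes with the mean of the 8 was 0.296. These correlations share their libraries and rest on 7 tissues of 2 libraries each, with ESC far above the rest.

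Of the partners of the chaperonin, the substrates and the prefoldin genes differed among themselves. Of 17 actin and tubulin genes, 12 were higher and 3 lower in ESC than in the mean of the 6 organs, and 2 did not pass. A level above that mean was not always the highest of the tissues. Tubb5, a beta tubulin, was higher by 3.24 ± 0.112, and its ESC libraries (1035 and 1420 TPM) lay above every organ library. Actb, the cytoplasmic beta actin, was higher by 1.09 ± 0.0997. Its ESC libraries (1903 and 2223 TPM) lay below those of lung (2355 and 2357) and spleen (4795 and 3817). Those of Tubb3 (52 and 35.2 TPM) lay below cortex (473 and 536). How many of the 12 lay below some organ was not counted. Acta2, the smooth muscle actin, was lower (log2 difference -4.59 ± 1.04). The ESC clones differed widely for Acta2, at 25.6 and 0.365 TPM, and the first lay within the range of the organs (3.43 to 475.5). Cdc20 (6.31 ± 0.217) and Fzr1 (1.54 ± 0.0869) were both higher. Of 5 prefoldin genes tested (Pfdn6 was not analysed here), Pfdn1 (1.89), Pfdn4 (1.71) and Vbp1 (1.80) were higher, and Pfdn2 (0.95) and Pfdn5 (-0.62) stayed under the limit of 1. Vbp1 stood at 79.9 and 179 TPM in the ESC clones, and the first lay below both cortex libraries (105 and 98.3). Of 4 phosducin-like genes only Pdcl2 passed, at 6.61, and none of the 3 chaperonin-like Bardet-Biedl genes Mkks, Bbs10 and Bbs12 did, with differences between -0.50 and 0.21. The mitochondrial chaperonin Hspd1 and its lid Hspe1 were higher by 1.64 and 1.82. The 6 proliferation markers were all higher than in the mean of the organs, by 2.60 (Pcna) to 7.47 (Ccnb1). Mki67 overlapped with spleen (68.2 and 78.2 TPM in ESC, 35.9 and 102.5 in spleen), as did Pcna (138 and 313, beside 109 and 176). Top2a, Mcm2, Mcm5 and Ccnb1 did not overlap with spleen. The part of these markers in the level of the subunits was not tested. Of the paralogs of the subunits, Cct6b was higher by 1.48 and Cct8l1 was not tested.

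In fibroblasts the subunits stood at 143.8 to 468 TPM after DMSO, and the differences after PladB were unequal among the 8. Cct6a went from 459 and 468 TPM with DMSO to 259.8 and 259 with PladB, Cct4 from 169 and 175 to 123 and 121, Cct5 from 269 and 269.9 to 213 and 204 and Cct3 from 145 and 144 to 123 and 112. The treated and control libraries of these 4 genes did not overlap, with PladB lower. The share of all genes without overlap was not counted. Cct7 went from 232 and 231 to 217 and 198. Tcp1 went from 169 and 165 to 157 and 162, Cct2 from 445 and 439.9 to 468 and 429.8 and Cct8 from 255 and 255 to 267 and 243, with no overlap for Cct7 and Tcp1, and for Cct2 and Cct8 the control values lay between the treated ones. By limma, 5 of 8 fell in TPM (Cct6a -0.84 ± 0.032, adjusted p = 1.03e-05; Cct4 -0.50; Cct5 -0.37; Cct3 -0.30; Cct7 -0.16, adjusted p = 0.0405), against 73.1% of 13221 genes. None of the 8 fell when library medians were centred, where all 8 were higher by 0.59 (Cct6a) to 1.45 (Cct2). Of the 13221 genes, 6811 were then called higher and 4835 lower, and the median difference over all was 0.29. The Cct7 call was lost without DMSO library 1 (adjusted p = 0.111), without DMSO library 2 (0.104) and without PladB library 2 (0.0644).

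TPM is relative to all transcripts, and the sign depended on the scale. The median log2 difference over the 13221 genes tested was -1.13 in TPM and -0.57 with no filter on low TPM, and the 100 most abundant genes took 42 and 41.8% of all TPM after PladB against 29.3 and 29.6% after DMSO. Relative to the median of genes tested, all 8 subunits were higher, by 0.30 (Cct6a) to 1.15 (Cct2). Between 57.4% (Cct6a) and 79.3% (Cct2) of genes tested had a lower log2 difference. Against the median with no filter, Cct6a (-0.84) was lower and the other 7 were higher. Within the complex, the ratio of Cct6a to the mean of the 8 went from 1.73 to 1.17 and that of Cct2 from 1.65 to 2.02, and these ratios do not depend on the scaling. Among other genes, in TPM, 12 of 15 actin and tubulin genes tested fell and 1 rose, 3 of 5 prefoldin genes fell and 2 rose, and all 3 phosducin-like genes tested fell, with medians of -0.66, -0.30 and -1.40 beside -0.23 for the subunits. Centring added 1.43 to each of these differences, which left 0 of the 15 actin and tubulin genes, 1 of the 5 prefoldin genes and 1 of the 3 phosducin-like genes below 0. Cdc20 fell by 3.14 on the log2 scale, from 156.3 and 147.7 TPM to 17.1 and 17.1, and Fzr1 by 1.87, and both stayed below 0 with centring. Hspe1 rose by 0.61, and Hspd1 did not pass (-0.0071). Of the Bardet-Biedl genes, Bbs10 rose by 1.15 while Mkks fell by 2.19 and Bbs12 fell by 3.55, with the same signs after centring. Of the 6 proliferation markers 5 fell and Pcna rose by 0.15, and with centring 3 were below 0. The 4 fibroblast markers summed to 1631 and 1572 TPM with DMSO and 1230 and 1181 with PladB, and the part of this in the subunit levels was not tested.

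**Figure D2:**
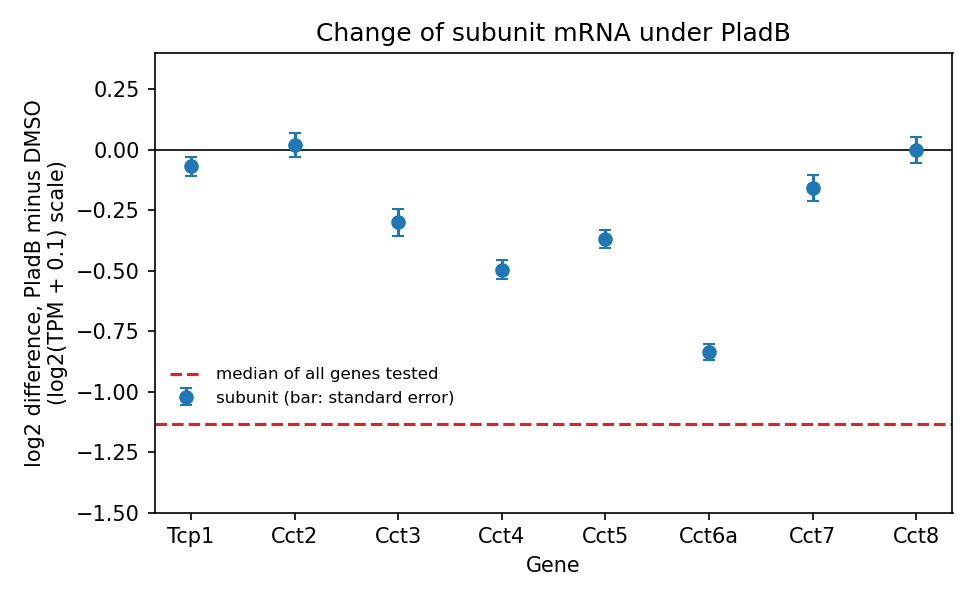
Log2 difference of TPM between PladB and DMSO fibroblasts for the 8 subunits (points, bars are standard errors, 2 libraries per group) with the median over the genes tested (mean TPM of 1 or more) as a dashed line. Cct6a is lowest, at -0.84 in TPM (0.59 with library medians centred), and all 8 lie above the median of -1.13, while Cct6a lies below the median of -0.57 that no filter on low TPM gave.

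Most SE events of the chaperonin genes had a PSI near 1. With all reads, 83 of 90 events had a mean PSI above 0.95 in every group with 20 or more reads, 1 stayed below 0.05, and 6 lay between. The same shares over the events of all genes were not counted, so these counts do not set the members apart. The 1 below 0.05, named after its values were seen, was a 54-base exon of Cct3 at chr3:88321310-88321363. The exon intervals listed for the events were 53 to 1650 bases long with a median of 116, and 37 of 91 had a length that is a multiple of 3. Among 38 member events tested across the 7 tissues by the quasi-binomial model, none passed an adjusted p of 0.05 with a PSI range of 0.1, beside 9.48% of 47963 events. At an unadjusted p of 0.05, 5 passed, beside 20.8% of all events, and 4 passed the adjusted p at any range, beside 13.3%. The median PSI range was 0.00292 in member events and 0.0145 in all events, and 36 of the 38 stayed under 0.02. At the read minimum, the shallowest member event kept was a Tcp1 event with 23 and 35 reads after PladB, and the nearest left out was the same event after DMSO, with 10 reads in each library.

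The widest range was that of an 86-base exon of Tcp1. It lies at chr17:12917798-12917883 (mm10, plus strand), 11 bases beyond the end of the neighbouring gene Mrpl18, between an exon that ends at 12916629 and one that starts at 12918043, and its length leaves a remainder of 2 when divided by 3. Whether it is coding was not examined, because no exon annotation was used. Its PSI with all reads was 0.997 and 0.996 in cortex, 0.996 and 0.985 in heart, 0.991 and 0.990 in liver, 0.981 and 0.980 in kidney, 0.964 and 0.966 in lung, 0.947 and 0.971 in ESC and 0.931 and 0.934 in spleen. Spleen had the most skipping and cortex the least, and the libraries of kidney, lung and spleen did not overlap with one another. The range of mean PSI was 0.0636 (adjusted p = 3.33e-05 in the quasi-binomial test, and 0.0223 with the replicate number as a block), under the limit of 0.1.

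Most skipping reads of this exon came from the C57BL/6J allele. In the 7 tissues, 801 of the 812 skipping reads with an allele were C57BL/6J reads (98.6%), and 812 of all 822 skipping reads had an allele. On the C57BL/6J allele PSI was 0.993 and 0.989 in cortex, 0.991 and 0.966 in heart, 0.976 and 0.977 in liver, 0.952 and 0.953 in kidney, 0.911 and 0.914 in lung, 0.859 and 0.926 in ESC and 0.833 and 0.830 in spleen. On the SPRET/EiJ allele no library was under 0.993, and cortex, heart and liver had no skipping read among 1743, 2143 and 2100 allelic reads, which allows a share of up to 0.172, 0.14 and 0.143% of reads. The alleles did not overlap in any tissue. PSI of both alleles together was below that of all reads, with the widest gap in spleen (0.895 against 0.933), and 62.3 to 68.1% of all reads of the event in tissues had an allele. In spleen all 267 skipping reads had an allele, beside 62.8% of all reads, so the reads without an allele were inclusion reads. Leaving them out lowers PSI most on an allele with skipping, which can widen the allelic differences. The size of this was not estimated.

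The allelic difference in mean PSI (C57BL/6J minus SPRET/EiJ) was -0.165 in spleen (adjusted p = 0.00764), -0.105 in ESC (0.177), -0.0863 in lung (0.0215), -0.0465 in kidney (0.0308), -0.0237 in liver (0.108), -0.0217 in heart (0.276) and -0.00859 in cortex (0.313). It passed both limits in spleen only, where it was 1 of 31 member events tested. No other member event passed in spleen, and none in cortex (0 of 18), heart (0 of 14), kidney (0 of 23), lung (0 of 20), liver (0 of 17) or ESC (0 of 42), where 2, 1, 1, 2, 2 and 1 passed an unadjusted p of 0.05. Over all events, 1.42% were called in spleen, 0.216% in ESC, 1.83% in lung, 1.76% in cortex, 1.86% in heart, 1.25% in liver and 1.90% in kidney. Both alleles of a library come from the same animal, and with the library as a block the adjusted p was 0.594 in spleen, 0.599 in lung and 0.621 in kidney, in fits that called no event of any gene. With 1 library alone the spleen difference was -0.163 or -0.167. An allele by tissue term over the 7 tissues, added after the data were seen, called none of 32 member events and 0.0963% of all, with none of the 32 at an unadjusted p of 0.05 and an adjusted p of 1 for the Tcp1 exon. The term works on log odds, which have no finite value for an allele without skipping reads, and the mean allelic differences spanned 0.156 between tissues.

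In fibroblasts the C57BL/6J allele of this exon was again the lower of the 2, and both alleles had less inclusion with PladB. With DMSO, PSI was 0.901 and 0.894 on the C57BL/6J allele, with 283 skipping and 4025 inclusion reads in library 1, and 1 and 0.999 on the SPRET/EiJ allele, with 2 skipping reads in the 2 libraries. The difference was -0.102 (adjusted p = 0.000421), the 1 event called of 24 member events, beside 1.82% of all events. With PladB, PSI was 0.754 and 0.676 on C57BL/6J and 0.825 and 0.822 on SPRET/EiJ. SPRET/EiJ skipping reads numbered 2 with DMSO and 677 with PladB, and the C57BL/6J share of skipping reads went from 99.7 to 71.1%. The allelic difference was -0.108 (adjusted p = 0.0254), the 1 called of 60 member events, beside 1.84% of all events. Leaving out 1 library leaves values with no test, and these were -0.105 without DMSO library 1 and -0.0994 without DMSO library 2. The PladB difference was -0.146 without PladB library 1 and -0.0706 without PladB library 2, so that 1 library of each treatment alone stayed under the limit of 0.1. With the library as a block, neither fibroblast call held (adjusted p = 0.6 and 0.605), nor did any event of another gene.

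Mean PSI went from 0.897 to 0.715 on the C57BL/6J allele (a difference of -0.182) and from 1.000 to 0.823 on the SPRET/EiJ allele (-0.176). The difference of the 2 allelic differences was -0.00593 on the PSI scale and did not pass the limit of 0.1. It was -0.0437 without PladB library 1 and turned to 0.0318 without PladB library 2, and it lay at -0.00297 and -0.0089 without DMSO libraries 1 and 2. On the log-odds scale of the model the allele by treatment term passed (adjusted p = 1.31e-05, 0.854 with the library as a block, and 0.0912 to 1.00 with a library left out), with 2 skipping reads of the SPRET/EiJ allele under DMSO. No member event was called for this term (0 of 21, with 3 at an unadjusted p of 0.05), beside 0.0368% of 13585 events.

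**Figure D3:**
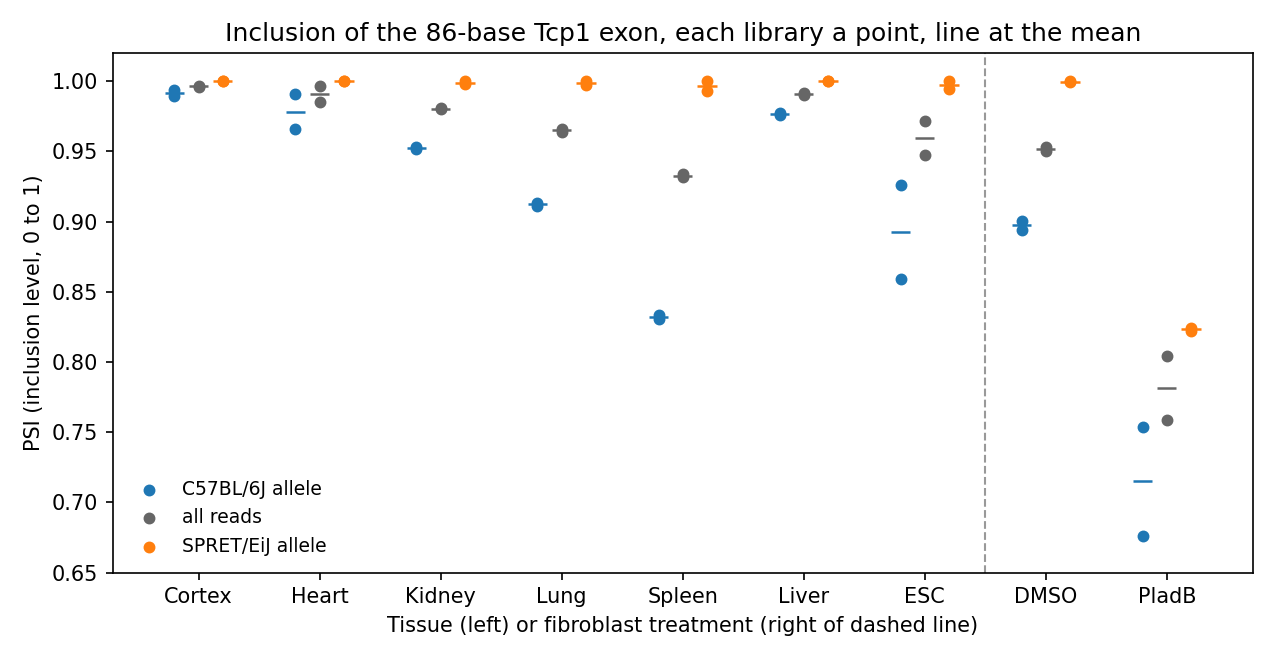
PSI of the 86-base Tcp1 exon in each library (points, line at the mean of 2) for the C57BL/6J allele, all reads and the SPRET/EiJ allele, by tissue and by fibroblast treatment. The C57BL/6J allele lies below the SPRET/EiJ allele in all 9 groups, lowest in spleen among the tissues, and both alleles are lower after PladB.

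With all reads, inclusion of 2 member exons fell past both limits with PladB, out of 67 tested, beside 7.13% of 54535 events called lower and 7.23% called in either direction. The Tcp1 exon went from 0.953 and 0.9499 with DMSO to 0.804 and 0.759 with PladB (difference -0.17, adjusted p = 0.00251). Its skipping reads numbered 283 and 327 with DMSO and 978 and 1364 with PladB. An 83-base exon of Cct6a at chr5:129792020-129792102 went from 1 and 0.999 to 0.910 and 0.875 (difference -0.107, adjusted p = 0.00208), with 0 and 4 skipping reads before and 215 and 359 after. Its length leaves a remainder of 2 when divided by 3. The groups did not overlap for either exon. With each of the 4 libraries left out in turn, neither call held (adjusted p from 0.0887 to 0.546), and no event of any gene was then called.

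After PladB the PSI of the Cct6a exon was 0.901 and 0.898 on C57BL/6J and 0.917 and 0.855 on SPRET/EiJ, so the alleles overlapped (difference 0.0131, adjusted p = 0.651). In lung PSI was 0.981 and 0.988 on C57BL/6J and 0.959 and 0.955 on SPRET/EiJ (difference 0.0268, adjusted p = 0.326). In ESC it was 0.971 and 0.965 on C57BL/6J and 0.949 and 0.962 on SPRET/EiJ (0.0124, adjusted p = 0.799). The alleles did not overlap in lung or ESC, with C57BL/6J the higher, and neither difference passed the test. With all reads, PSI in tissues was 0.973 and 0.975 in ESC, 0.974 and 0.972 in spleen, 0.978 and 0.979 in lung, 0.980 and 0.961 in heart and 0.978 and 0.997 in kidney, where the libraries of kidney and heart lay further apart than those of the others. Cct6a was also the subunit with the largest fall in TPM after PladB, which turned to a rise with library medians centred, and both measures come from the same libraries.

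Small losses of inclusion were common among the other member exons. Of 67 events, 55 had a lower PSI after PladB and 12 a higher one, and over all events 40527 were lower and 14005 higher. An adjusted p under 0.05 at any size was reached by 18 of the 67, all of them lower, beside 14.5% of all events, which were read less deeply, as given above. For 57 of the 67 the difference was within 0.01. The median difference was -0.00134 in the member events and -0.00524 over all events. A 75-base exon of Cct2 (chr10:117062976-117063050) went from 1 in both DMSO libraries to 0.962 and 0.936, with 13 and 20 skipping reads (adjusted p = 0.0255). A 73-base exon of Cct6a (chr5:129845583-129845655) went from 1 to 0.965 and 0.945, with 35 and 63 skipping reads (adjusted p = 0.00425). A 61-base exon of Cct5 (chr15:31598000-31598060) went from 1.000 and 1 to 0.984 and 0.980 (adjusted p = 0.00283). Cct8 had no event with an adjusted p under 0.05.

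**Figure D4:**
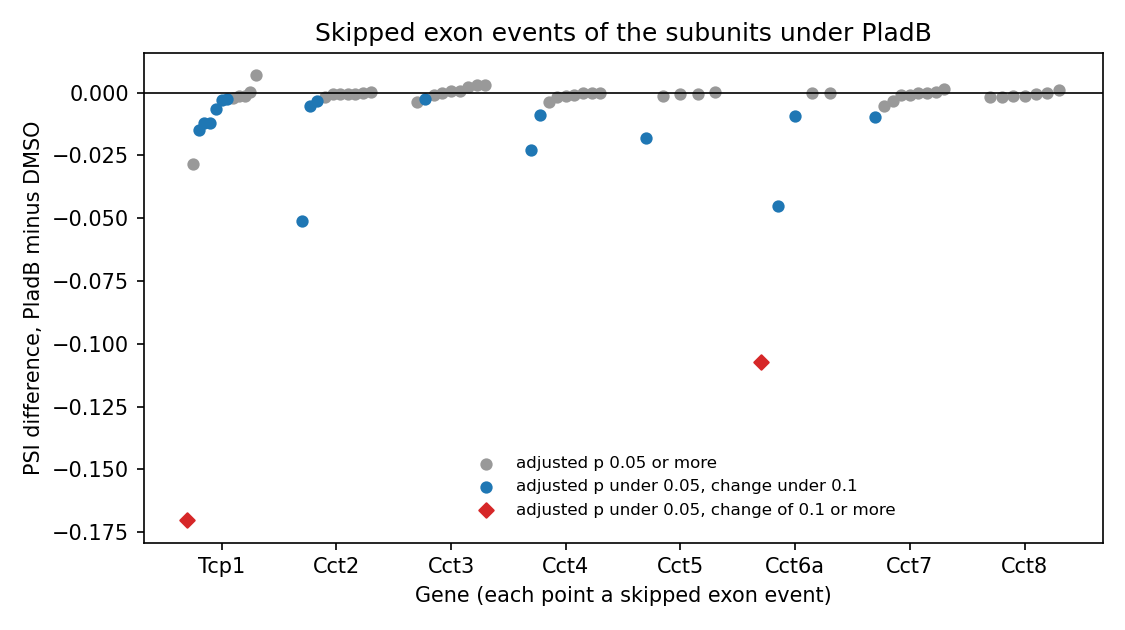
Difference of mean PSI between PladB and DMSO fibroblasts for each of the 67 SE events of the 8 genes (points). The exons of Tcp1 and Cct6a that passed both limits are diamonds at -0.17 and -0.107, and 57 events lie within 0.01 of 0.

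Of the 4 retained introns, none passed both limits, beside 38.0% of 1802 introns, and 3 passed an unadjusted p of 0.05, beside 60.6% of all introns. The intron event of Tcp1 (chr17:12918172-12919814) was at PSI 0.937 and 0.875 with DMSO and 0.987 and 0.984 with PladB (difference 0.079, adjusted p = 0.0031), and it passed both limits without DMSO library 1 (difference 0.11). That interval holds the exon at chr17:12919351-12919448, and the skipping reads counted for the event join the exons on both sides across it, so its PSI is not the share of unspliced transcripts. A share chosen after the data were seen set the reads over the outer intron boundaries (298 and 309 with DMSO, 1903 and 2806 with PladB) against those spliced to the inner exon (10570 and 10619, then 6209 and 6573). Boundary reads made up 2.74 and 2.83% of the sum with DMSO and 23.5 and 29.9% with PladB, without overlap. This share was not tested. The 3 intron events of Cct3 were at PSI 0.00197 to 0.0174 with DMSO and 0.00479 to 0.0258 with PladB.

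Other member exons with a PSI under 0.95 in some group stood apart by library or by read type. A 192-base exon interval of Cct3 (chr3:88300800-88300991) was at PSI 0.909 and 0.914 in ESC and up to 0.949 in a cortex library. It was at 0.998 and 0.998 with DMSO and 0.996 and 0.998 with PladB. That interval holds a 78-base intron event (chr3:88300851-88300928), at PSI 0.0118 and 0.0107 with DMSO and 0.00504 and 0.00752 with PladB. Inclusion was counted at the outer junctions, so the PSI of the 192-base event is not the share of transcripts with the whole interval. Read length differed between tissues and fibroblasts, so tissue and read length cannot be told apart. In the reads given to an allele, 6 to 8.17% of all reads of that event in tissues, its PSI was 0.888 to 1. A 53-base exon of Cct4 (chr11:22993267-22993319) had PSI 0.975 to 0.992 in tissues with all reads, while its alleles together gave 0.811 to 0.916, from 8.63 to 12.1% of the reads. The Cct5 exon above gave 0.685 for its alleles together after PladB against 0.982 with all reads, from 1.91% of the reads. In both exons the alleles together differed from all reads by more than 0.1 in some groups, and no allelic difference is given for them. A 129-base Tcp1 event (chr17:12918043-12918171, skipped to 12920740) had a PSI of 1 in lung library 1 and 0.723 in lung library 2, with 9 skipping reads of 56. A 109-base Cct4 event (chr11:22995930-22996038) reached 0.887 in 1 PladB library, with 2 skipping reads of 29. A 165-base exon of Cct8 (chr16:87485580-87485744) stood at 0.985 to 1 with all reads and at 0.902 to 0.998 on the alleles.

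The 2 alleles contributed similar numbers of junction reads for most subunits. At 1 event per gene, the C57BL/6J share of allelic reads lay between 37.3 and 63.9% in every library, inside the range from the 5th to the 95th percentile of all genes in each group. Tcp1 had the highest share of the members with enough reads in cortex (57.9 and 60.2%), heart (60.1 and 63.8%), kidney (60.1 and 59.9%) and lung (62.7 and 60.9%), and was below 50.3% in liver (44.6 and 46.4%), against medians of 50.2 to 50.6% over all genes. Cct2 had 60.3 and 58.9% in spleen, 59.1 and 60.6% in ESC and 57.7 and 60.04% with PladB, against 53.1 and 54.3% in lung and 54.9 and 53.9% with DMSO, and had no value at this event in the other organs. At another Cct2 event (chr10:117061298-117061410) its share was 59.4 and 59.2% with DMSO and 61.1 and 62.4% with PladB. That event gave 52.8 and 54% in cortex and 48 and 46% in heart, so the share of Cct2 depended on the event. At the event used, Cct4 lay at 47.1 to 53.1% in tissues, and in fibroblasts at 39.3 and 40.6% with DMSO and 37.3 and 41.5% with PladB. At another Cct4 event (chr11:23002817-23002930) its share was 43.2 and 43.5% in spleen and 46.8 and 44% in kidney. That event gave 47.5 and 48.9% in lung and 50.4 and 45.4% in ESC, so the tissue share depended on the event. Cct8 gave 63.9 and 50.03% in the 2 ESC clones. These shares were not tested.

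**Figure D5:**
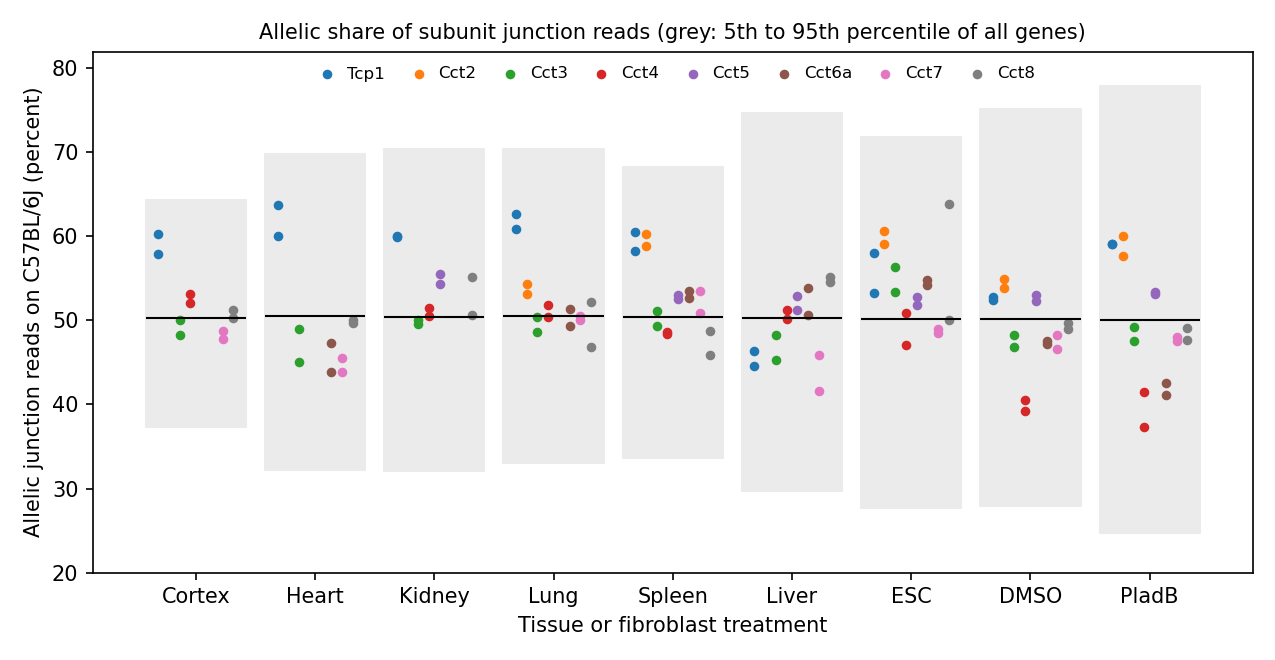
Share of allelic junction reads on the C57BL/6J allele (percent) at 1 event per gene, each library a point, with the median (line) and the 5th to 95th percentile (grey) of all genes in that group. Tcp1 lies highest in cortex, heart, kidney and lung and below the median in liver. Cct4 lies lowest with DMSO and overlaps Cct6a with PladB.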

How the data were processed

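RNA was sequenced from 2 libraries of each of 9 groups. Per the labels and the study's methods, reads were aligned with HISAT2 2.0.1 (named in the submitters' processing notes) to both parental genomes, given to the allele with fewer mismatches and counted over mm10 splice events by rMATS. The deposited tables hold junction counts, inclusion and skipping, for both replicates in 1 cell, and the authors' TPM per gene. They also hold the authors' p-values, inclusion levels and differences, which were not used.

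PSI was computed from the counts, each divided by its effective length. Inclusion against skipping counts were fitted by a quasi-binomial logistic model with a deviance F test, with the dispersion moderated by limma 3.58.1 (R 4.3.3) and not under 1, over autosomal events with 20 or more reads in each library and, for alleles, each allele. Calls needed a Benjamini-Hochberg adjusted p of 0.05 over all events and a PSI difference of 0.1. TPM was tested by limma on log2(TPM + 0.1) for genes with a mean TPM of 1 or more, which understates changes of low genes. ESC and tissue calls also needed a log2 difference or range of 1. The scripts ran in Python 3.11.15 with numpy 2.4.6, scipy 1.17.1 and pandas 2.3.3, and were tested on simulated data. Values after ± are limma standard errors, which measure the spread between libraries. The limits given for an allele without a skipping read cover counting error only.

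The members and lists were chosen with earlier results of these data known. All 8 genes, events with a mean PSI between 0.05 and 0.95 in some group or a call, all retained introns, and the 5 genes outside the members with the most similar profile are named. The alleles of a library are paired, since they come from the same RNA, and their replicate differences correlated at 0.0435 to 0.424 across events. Alternatives were other read minimums, no depth trend, the library or replicate number as a block, each library left out, other pseudocounts, filters and scalings, and all libraries in 1 fit. The class of an exon (coding or UTR) and its sequence were not analysed here, since no genome was used.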

Additional observations from a re-analysis of the deposited data

Results flagged for a closer look

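The 86-base Tcp1 exon stood out for the allele by treatment term in fibroblasts, where the test of the difference between allelic effects passed. The adjusted p was 1.31e-05 on the log-odds scale, while the difference of the 2 allelic differences in mean PSI was -0.00593, which was -0.0437 without PladB library 1 and turned to 0.0318 without PladB library 2. With the library as a block the adjusted p was 0.854. Mean PSI went from 0.897 to 0.715 on the C57BL/6J allele and from 1.000 to 0.823 on the SPRET/EiJ allele. These steps are similar in PSI, while a step that starts near a PSI of 1 is larger in log odds.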

How the results depend on the processing

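With library medians centred, the 5 subunits that fell in TPM after PladB turned to higher (Cct3 1.13, Cct4 0.93, Cct5 1.06, Cct6a 0.59, Cct7 1.27) and 8 of 8 were called higher, while a limit of 1 on the log2 difference left 0. Among all genes called, 2094 were higher and 9664 lower before centring, and 6811 and 4835 after. The exon calls after PladB went from 2 to 0 with each library left out and with the replicate number as a block. Replicate numbers of the treatments did not deviate together (r = 0.00484 for PSI and -0.0123 for TPM), so these samples share only a number. Under the block the Tcp1 exon had an adjusted p of 0.416. With each library left out, its difference lay between -0.148 and -0.193 and that of the Cct6a exon between -0.0895 and -0.125. The retained intron calls ranged from 0 to 1 over the libraries left out. With the library as a block, the allelic calls were 0 in tissues, 0 in DMSO and 0 in PladB fibroblasts. Among the organs, which came from 2 animals, same-numbered libraries deviated together in the same direction in all 15 pairs of organs (r from 0.0368 to 0.212), 7 of them over 0.1, while the sources used here do not say that a number marks an animal. Across tissues the block took the calls over all events from 4546 to 2932, with 0 of the members either way, and left all 8 subunit levels called across tissues. The allele by treatment term called 5 events of all genes, 2 at a minimum of 50 reads, 3 without the depth trend and 0 under the block or with a library left out. The causes were not tested. Of the other values for the summary counts, 94 kept their side of the threshold, as did 894 for single genes and events, where 23 lost a call, 4 gained one and 10 moved. An allelic fit of 1 group without 1 of its libraries leaves no residual degrees of freedom, so it gave values and no test. With 2 libraries per group, small PSI differences in shallow events were not detectable at this depth.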
